A study of Saccharomyces cerevisiae with 4 samples.

Results

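The genes described here are 10 members of the phosphate (PHO) regulon of the budding yeast Saccharomyces cerevisiae, taken by name from 7126 counted features: PHO84, PHO89, SPL2, PHO5, PHO11, PHO12, PHO8, PHM8, VTC1 and VTC3. Their messenger RNA was measured in a strain carrying xpo1-1 and mex67-5 (n = 2 libraries) and in a wild-type strain (n = 2 libraries). Xpo1, the product of CRM1, carries proteins and some RNAs out of the nucleus, and Mex67 is the principal carrier of messenger RNA. Every culture was grown at 25 °C and then held at 37 °C for 1 h, so the wild type received the same heat shift. No phosphate condition is named in the labels, and all groups are compared only at 37 °C. Libraries were read as 50-base single reads of polyadenylated RNA by a kit that does not mark strand.

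When phosphate runs short in budding yeast, the kinase inhibitor Pho81 holds the cyclin and kinase pair Pho80 and Pho85 in check. The transcription factor Pho4 then stays unphosphorylated in the nucleus and, with Pho2, switches on genes for phosphate uptake, phosphate release and polyphosphate storage. Pho4 enters the nucleus on the importin Pse1 and leaves it on the exportin Msn5. The regulon is known for a shared response to low phosphate, led by the transporter gene PHO84 and the acid phosphatase gene PHO5.

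In the mutant the 10 genes did not move together. PHM8, SPL2, PHO12, PHO11, PHO89, PHO5 and VTC3 rose, PHO84 and VTC1 fell, and PHO8 was not called. The largest rise was 9.79-fold, in PHM8, and the largest fall 1.8-fold, in PHO84. Both transporter genes thus went opposite ways, as did both subunits of the polyphosphate synthase counted here. All 10 passed the filter on low counts. By edgeR's quasi-likelihood test, with Benjamini-Hochberg adjusted p under 0.05 over all genes tested, 7 of 10 were higher and 2 were lower, where 93.1% of all 6563 tested genes were called, 46.8% higher and 46.3% lower. With a log2 change of at least 1 as well, 5 of 10 were higher, beside 27.8% of all tested genes, and 0 were lower, beside 25.5%. The median log2 change was 1.15 for the 10 genes and 0.01 for all tested genes. Nothing particular to the list is read from counts this small.

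The mutant libraries held 62205252 and 50843634 reads in genes and the wild-type libraries 49865570 and 49321384. Levels below are CPM, reads per 1000000 of the scaled library size, or RPKM, which is CPM per 1000 bases of coding length. RPKM is the only scale used to compare genes. For PHO85, which has 2 coding segments, the length is the gene span with its intron. The mutated gene MEX67 averaged 1925 ± 30.9 CPM in the mutant and 154 ± 3.25 CPM in the wild type, and CRM1 averaged 189 ± 1.94 CPM in the mutant and 219 ± 2.57 CPM in the wild type (SD, n = 2 each). Which allele these reads come from was not examined, so these levels do not test the genotype. The labels do not state that libraries of a group were separate cultures, so each p is set against a spread that may be technical only. A change is a change of share within the RNA of a culture: more RNA per cell and more cells making it cannot be told apart.

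**Figure D1:**
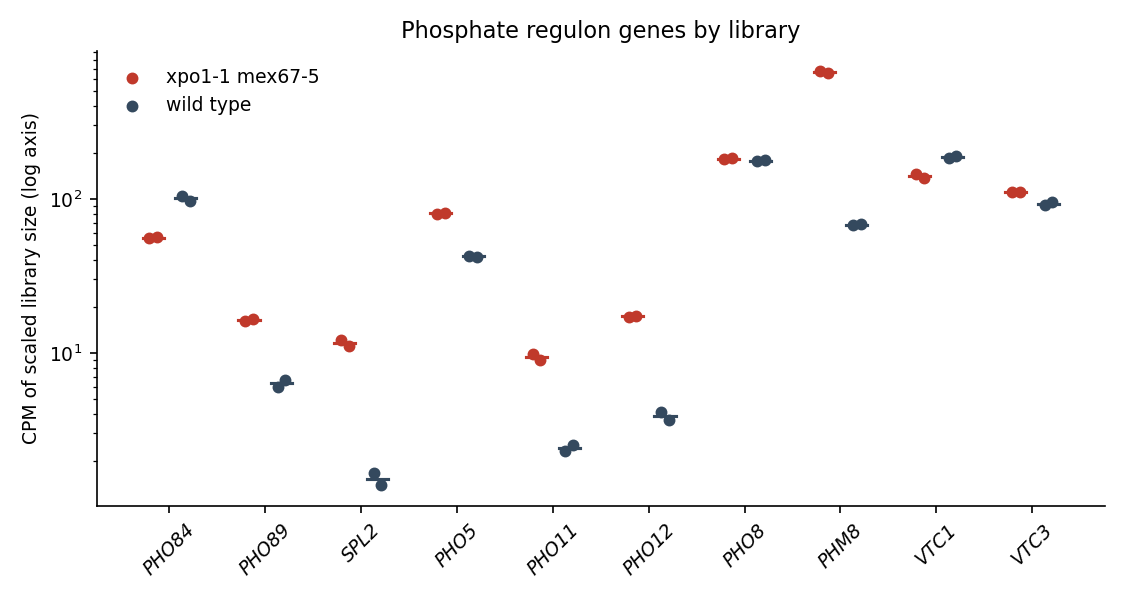
CPM (log axis) of each of the 10 genes in the 2 xpo1-1 mex67-5 libraries (red) and the 2 wild-type libraries (dark blue); points are libraries and short lines are group means. The mutant points lie above the wild-type points for every gene except PHO84 and VTC1, and those of PHO8 nearly touch.

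The stretches of DNA before these genes carry short matches to the DNA core that Pho4 binds. The palindrome CACGTG and the variant CACGTT were searched on both strands in the 600 bases before each start codon of build R64. All 10 genes had at least 1 match to either core, beside 24.4% of 5999 protein-coding genes with a full window. The palindrome stood before 9 of 10, beside 7.23% of genes, and 8 of 10 held at least 2 matches of any kind, beside 3.58%. In all 23 matches were found, and 0 pairs of them overlapped. The sequences below are shown because they are what the 10 genes share although their changes differ in sign. For each gene the match to the palindrome nearest to the start codon is printed 5′ to 3′ on the strand of the gene with 15 bases on each side (for PHM8, which had no palindrome, its variant), and the core is in capitals.

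PHO84 (chrXIII:26194-26229, minus strand): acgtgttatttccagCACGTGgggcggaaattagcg
PHO89 (chrII:798825-798860, minus strand): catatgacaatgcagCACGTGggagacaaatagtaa
SPL2 (chrVIII:375111-375146, minus strand): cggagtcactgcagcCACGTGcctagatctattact
PHO5 (chrII:431184-431219, minus strand): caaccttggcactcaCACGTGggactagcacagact
PHO11 (chrI:225162-225197, plus strand): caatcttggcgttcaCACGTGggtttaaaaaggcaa
PHO12 (chrVIII:551801-551836, plus strand): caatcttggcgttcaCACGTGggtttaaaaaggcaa
PHO8 (chrIV:1420764-1420799, minus strand): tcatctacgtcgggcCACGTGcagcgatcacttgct
VTC1 (chrV:302634-302669, plus strand): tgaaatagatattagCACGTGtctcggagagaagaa
VTC3 (chrXVI:517309-517344, minus strand): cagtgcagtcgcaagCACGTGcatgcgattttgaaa
PHM8 (chrV:225599-225634, plus strand): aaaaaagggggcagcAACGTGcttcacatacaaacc

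PHO5, PHO11 and PHO12 also share the surroundings of their variant match, which lies farther from the start codon, at 362, 416 and 418 bases before it.

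PHO5 (chrII:431293-431328, minus strand): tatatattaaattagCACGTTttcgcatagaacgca
PHO11 (chrI:225029-225064, plus strand): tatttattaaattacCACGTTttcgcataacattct
PHO12 (chrVIII:551666-551701, plus strand): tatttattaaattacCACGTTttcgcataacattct

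The printed flanks of PHO11 and PHO12 are the same. Those genes also had nearly the same change, as given below. Their coding sequences are 99.7% identical, so their counts are not separate observations and nothing is read from that likeness. Match number did not order the changes: SPL2 had 4 palindromes and PHM8 none, and these 2 genes rose most, while PHO84 had 4 matches of either core and fell. Both matches of PHO8 lie inside the neighbouring gene CWC21, and the 4 of PHO84 lie inside the open reading frame YML122C and an annotated antisense RNA. A match is a description of the sequence and not a bound site.

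**Figure D2:**
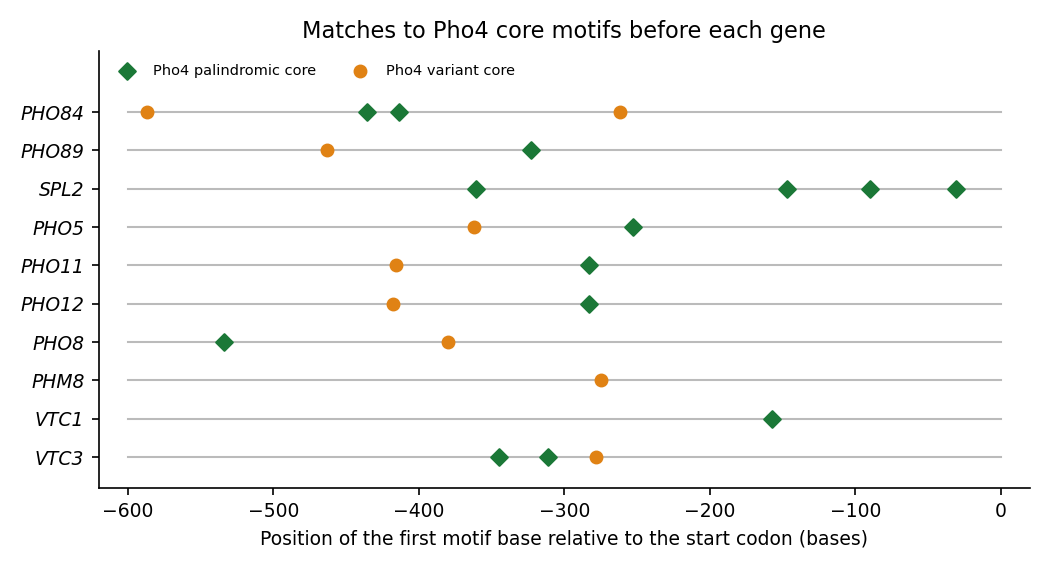
Position of the first base of each match to the palindromic Pho4 core (green diamonds) and to its variant (orange circles), in bases relative to the start codon, over the 600 bases before each of the 10 genes. SPL2 carries 4 palindromic matches, the nearest at 31 bases before the start codon, whereas PHM8 carries a single variant match at 275 bases.

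Among the uptake genes, PHO84 (YML123C, chromosome XIII, 24037 to 25800), which encodes the main high-affinity phosphate and proton symporter, had 55.4 and 56.3 CPM in the mutant, against 105 and 96.3 CPM in the wild type. Each mutant library lay below both wild-type libraries. The log2 change was -0.85 (SE 0.042), with an edgeR adjusted p of 2.0e-12. An antisense RNA is annotated across all 1764 bases of PHO84. It was not analysed here, and without strand its reads cannot be told apart from those of PHO84.

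PHO89 (YBR296C, chromosome II, 796798 to 798522) encodes the other high-affinity transporter, which moves phosphate with sodium and works best at alkaline pH. It had 16.2 and 16.5 CPM in the mutant, against 5.99 and 6.70 CPM in the wild type. The groups were well apart, and PHO89 rose 2.58-fold (log2 1.36, SE 0.081, edgeR adjusted p = 2.8e-11). Per coding length the ratio of PHO84 to PHO89 was 3.35 and 3.33 in the mutant and 17.1 and 14.1 in the wild type. That ratio is free of library scaling and was 4.64-fold lower in the mutant. Its exact permutation p (two-sided) was 0.333, the smallest that 2 libraries against 2 can give. Summed, both transporters had 41.1 ± 0.529 RPKM in the mutant and 60.7 ± 3.07 RPKM in the wild type (SD, n = 2 each).

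SPL2 (YHR136C, chromosome VIII, 374654 to 375100) encodes a small protein that lowers uptake through low-affinity phosphate transporters. Its counts were 762 and 560 reads in the mutant and 83 and 68 reads in the wild type. The wild-type counts were the lowest of the 10 genes. These are 12.1 and 11.1 CPM in the mutant, against 1.67 and 1.38 CPM in the wild type. SPL2 rose 7.59-fold (log2 2.92, SE 0.12, edgeR adjusted p = 1.6e-13), the second largest change of the 10 after that of PHM8. Among all tested genes 6.98% rose more.

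The secreted acid phosphatases free phosphate from organic compounds outside the cell. PHO5 (YBR093C, chromosome II, 429548 to 430951), the main phosphate-repressible form, had 80.2 and 80.6 CPM in the mutant, against 42.6 and 42.0 CPM in the wild type. The libraries of a group differed little, and PHO5 rose 1.90-fold (log2 0.93, SE 0.039, edgeR adjusted p = 1.6e-13). Its subtelomeric relatives PHO11 (YAR071W, chromosome I, 225460 to 226863) and PHO12 (YHR215W, chromosome VIII, 552099 to 553502) started from much lower counts. PHO11 had 9.90 and 9.01 CPM in the mutant, against 2.32 and 2.52 CPM in the wild type. PHO12 had 17.1 and 17.4 CPM in the mutant, against 4.16 and 3.65 CPM in the wild type. Both genes were higher in each mutant library, PHO11 by 3.92-fold (SE 0.11 on the log2 scale, edgeR adjusted p = 1.6e-11) and PHO12 by 4.41-fold (SE 0.088, edgeR adjusted p = 1.3e-13).

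PHO11 and PHO12 can hardly be separated by short reads. Their coding sequences differ at 4 of 1404 bases (99.7% identity), written here as A273G, A1060C, C1245T and A1268G with the PHO11 base first and positions counted from 1 at the start codon. The stretch of coding positions 1209 to 1268 holds 2 of these differences, in capitals, and is shown because only such reads tell the genes apart.

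PHO11 (chrI:226668-226727, plus strand): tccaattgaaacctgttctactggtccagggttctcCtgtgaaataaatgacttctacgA
PHO12 (chrVIII:553307-553366, plus strand): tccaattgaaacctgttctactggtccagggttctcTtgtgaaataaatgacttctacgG

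Of the 1355 windows of 50 bases in each gene, 11.7% were unique in the genome for PHO11 and 12.8% for PHO12, against 87.7% for PHO5. The 7 genes outside this family were unique in every window. The treatment of reads with several places in the genome was not given in the sources used here. Summed before the fit, PHO11 and PHO12 gave a log2 change of 2.08 (edgeR adjusted p = 8.5e-15), so their joint rise does not depend on how reads were split between them. Their ratio, PHO12 to PHO11, was 1.73 and 1.93 in the mutant and 1.79 and 1.45 in the wild type, overlapping ranges (exact permutation p = 0.667, two-sided).

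The order of levels within the family depends on that counting. Per coding length, PHO5 had 57.3 ± 0.216 RPKM in the mutant and 30.1 ± 0.34 RPKM in the wild type, PHO12 had 12.3 ± 0.145 RPKM in the mutant and 2.78 ± 0.253 RPKM in the wild type, and PHO11 had 6.73 ± 0.453 RPKM in the mutant and 1.72 ± 0.0991 RPKM in the wild type (SD, n = 2 each). If only reads in unique windows had been counted, the mutant levels per 1000 unique windows would be 67.7 ± 0.255 CPM for PHO5, 99.6 ± 1.18 for PHO12 and 59.5 ± 4.0 for PHO11, with PHO12 highest. In the wild type they would be 35.6 ± 0.401, 22.6 ± 2.05 and 15.2 ± 0.875, with PHO5 highest. On the coding-length scale the ratio of PHO5 to the sum of PHO11 and PHO12 was 2.97 and 3.06 in the mutant, against 6.59 and 6.80 in the wild type (exact permutation p = 0.333, two-sided, the smallest possible).

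PHO3, the constitutive acid phosphatase gene just downstream of PHO5, went the other way. It fell 4.36-fold, to 75 ± 1.95 CPM in the mutant, against 328 ± 2.65 CPM in the wild type (SD, n = 2 each; edgeR adjusted p = 5.6e-19). PHO3 and PHO5 are 86.5% identical over the coding sequence, and 91.3% of PHO3 windows were unique. Per coding length the ratio of PHO5 to PHO3 was 1.05 and 1.09 in the mutant, against 0.131 and 0.127 in the wild type. With PHO3 included, the family summed to 129.7 ± 1.48 RPKM in the mutant and 268 ± 1.39 RPKM in the wild type. Without it, the 3 repressible genes summed to 76.3 ± 0.0917 RPKM in the mutant and 34.6 ± 0.493 RPKM in the wild type, 2.20-fold higher. The size of both sums depends on how the shared reads of PHO11 and PHO12 were counted. If only reads in unique windows had been counted, both differences would have other sizes. PHO3 would then be at 60.7 ± 1.58 CPM per 1000 unique windows in the mutant and 265 ± 2.14 in the wild type.

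PHO8 (YDR481C, chromosome IV, 1418550 to 1420250), the vacuolar alkaline phosphatase gene, had 181 and 183 CPM in the mutant, against 175 and 178 CPM in the wild type. The groups lay close together, with a log2 change of 0.04 and a 95% interval of -0.03 to 0.11 (edgeR adjusted p = 0.26). The interval spans folds of 0.978 to 1.08. The call moved with the scaling: it was higher at a log2 change of 0.14 (edgeR adjusted p = 0.00093) with upper quartile scaling and at 0.09 (edgeR adjusted p = 0.019) with genes under a mean of 1 CPM left out. The log2 change was -0.004 (edgeR adjusted p = 0.91) when ribosomal protein genes were kept out of the scaling.

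PHM8 (YER037W, chromosome V, 225889 to 226854) encodes a phosphatase of lysophosphatidic acid and of nucleotides. It had 672 and 661 CPM in the mutant, against 67.9 and 68.2 CPM in the wild type. This is the largest change of the 10, 9.79-fold (log2 3.29, SE 0.038, 95% interval 3.21 to 3.37, edgeR adjusted p = 4.3e-21), and 5.42% of all tested genes rose more. The neighbour KRE29 ends 3 bases from the end of PHM8 on the other strand and also rose 3.13-fold, to 78.5 and 78.7 CPM in the mutant, against 25.2 and 25.0 CPM in the wild type. Reads at the joined ends of such genes cannot be told apart without strand.

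**Figure D3:**
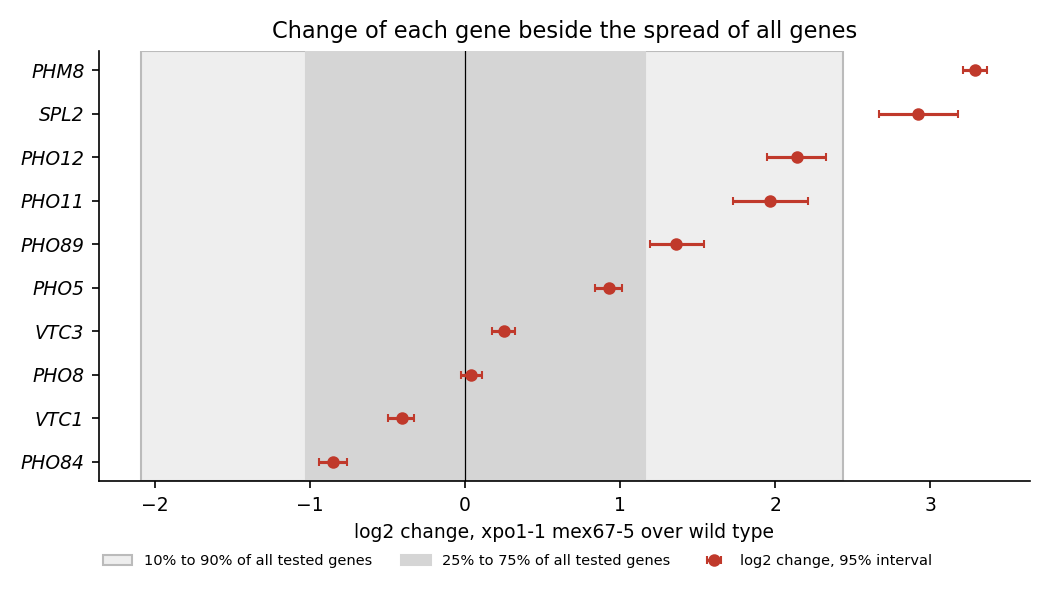
Log2 change (xpo1-1 mex67-5 over wild type) of each of the 10 genes with its 95% interval, ordered by size, over the ranges that hold the middle 80% (light grey) and the middle 50% (dark grey) of all 6563 tested genes. PHM8 and SPL2 lie beyond the light band, which ends at 2.44, and PHO84, at -0.85, lies within the dark band, which starts at -1.03.

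VTC1 and VTC3 encode subunits of the vacuolar transporter chaperone complex, which makes polyphosphate from ATP and threads it into the vacuole. VTC1 (YER072W, chromosome V, 302806 to 303195), the small membrane subunit, had 144 and 136 CPM in the mutant, against 185 and 189 CPM in the wild type. It fell 1.33-fold (SE 0.038 on the log2 scale, edgeR adjusted p = 1.2e-08). VTC3 (YPL019C, chromosome XVI, 514511 to 517018), a regulatory subunit, had 111 and 110 CPM in the mutant, against 91.7 and 94.8 CPM in the wild type, and rose 1.19-fold (SE 0.036, edgeR adjusted p = 5.9e-06). The groups did not overlap for either gene, which also held for 96.4% of all tested genes. Per coding length the ratio of VTC1 to VTC3 was 8.35 and 7.95 in the mutant, against 12.9 and 12.8 in the wild type (exact permutation p = 0.333, two-sided, the smallest possible).

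The other subunits differed in direction too. VTC4, the catalytic subunit, fell 1.69-fold and VTC2, the subunit that takes the place of Vtc3 in a part of the complexes, fell 2.78-fold, while VTC5, an activating subunit, rose 2.37-fold (edgeR adjusted p at most 1.1e-12 for each). Per coding length, VTC3 to VTC2 stood at 2.67 and 2.89 in the mutant, against 0.832 and 0.852 in the wild type. VTC3 was thus the higher of these 2 alternatives in the mutant libraries and VTC2 in the wild-type libraries (exact permutation p = 0.333, two-sided, the smallest possible). Over all 5 subunits the sum was 523 ± 16.1 RPKM in the mutant and 662 ± 9.38 RPKM in the wild type, most of it from VTC1.

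**Figure D4:**
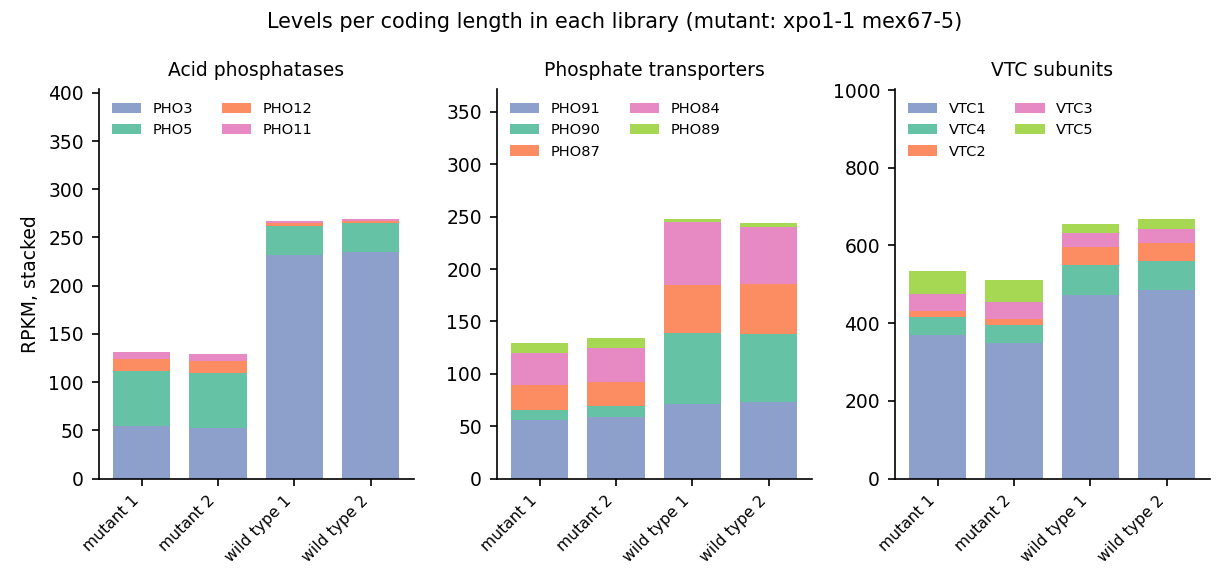
RPKM per library, stacked by gene, for acid phosphatases, phosphate transporters and subunits of the polyphosphate synthase, in the 2 xpo1-1 mex67-5 libraries and then the 2 wild-type libraries. PHO3 fills most of the wild-type acid phosphatase bar and less than the repressible genes together in the mutant, and the low-affinity transporters PHO87, PHO90 and PHO91 together stand at 90.6 RPKM in the mutant, against 185 RPKM in the wild type.

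On the coding-length scale the order of the 10 genes also differed between the strains. In the mutant PHM8 stood highest at 690 ± 7.93 RPKM, followed by VTC1 at 359 ± 15.1, PHO8 at 107 ± 0.903, PHO5 (57.3), VTC3 at 44.1 ± 0.309, PHO84 at 31.7 ± 0.381, SPL2 at 25.9 ± 1.67, PHO12 (12.3), PHO89 at 9.48 ± 0.148 and PHO11 (6.73). In the wild type VTC1 stood highest at 479 ± 8.40 RPKM, followed by PHO8 at 104 ± 0.959, PHM8 at 70.5 ± 0.214, PHO84 at 57.0 ± 3.36, VTC3 at 37.2 ± 0.878, PHO5 (30.1), PHO89 at 3.68 ± 0.29, SPL2 at 3.42 ± 0.465, PHO12 (2.78) and PHO11 (1.72). Libraries of genes next to each other in an order did not overlap, except those of PHO89 and SPL2 in the wild type. SPL2 and PHO12 in the wild type differed by less than their summed SD. PHO11 and PHO12 carry the uncertainty given above.

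The machinery upstream of Pho4 changed in both directions. PHO4 itself averaged 213 ± 6.49 CPM in the mutant and 111 ± 1.33 CPM in the wild type, 1.91-fold higher. PHO81, the inhibitor and also a target of Pho4, rose 3.03-fold, to 179 ± 3.09 CPM in the mutant, against 59.1 ± 2.23 CPM in the wild type. The cyclin gene PHO80 rose 2.19-fold, to 76.6 ± 4.08 CPM in the mutant, against 35.0 ± 0.0216 CPM in the wild type. The kinase gene PHO85 fell 2.09-fold, to 49.2 ± 1.64 CPM in the mutant, against 103 ± 1.2 CPM in the wild type (SD, n = 2 each; edgeR adjusted p at most 8.3e-14 for all 4 genes). Cyclin and kinase messages therefore differed in their ratio, 1.91 and 1.69 in the mutant, against 0.398 and 0.391 in the wild type. It is taken per gene span, which for PHO85 includes an intron. PHO2 was not called, at 45.3 ± 0.0265 CPM in the mutant and 44.6 ± 0.982 CPM in the wild type (edgeR adjusted p = 0.62). Of the 8 genes listed for signalling and transcription, 3 rose (37.5%, beside 46.8% of all tested genes) and 4 fell (50%, beside 46.3%), with a median log2 change of -0.06. The remaining 3 falls were small, in CBF1 (log2 -0.42), which binds the same palindrome, PSE1 (-0.22) and MSN5 (-0.14). That of MSN5 was not called with upper quartile scaling (log2 -0.04, edgeR adjusted p = 0.26).

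Inositol pyrophosphates report phosphate status to the pathway. Of 7 genes of their enzymes 4 fell, which is 57.1% beside 46.3% of all tested genes. A rise was called for 1, which is 14.3% beside 46.8%, and the median log2 change was -0.45. Nothing is read from counts in a list of 7, and the values of single genes are given as a description. ARG82, an inositol polyphosphate kinase, rose 2.91-fold. IPK1, which makes inositol hexakisphosphate, fell 2.04-fold and DDP1, a diphosphoinositol polyphosphate hydrolase, 2.69-fold. KCS1 (log2 0.02) and PLC1 (0.03) were not called. The kinase gene VIP1 fell 1.37-fold.

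In the list of other transporters and their factors all genes fell except GIT1. PHO86, PHO88 and GTR1 stand in it as factors, so its share and median are not those of transporters alone. Of 8 listed genes 7 fell, which is 87.5% beside 46.3% of all tested genes, and 1 rose (12.5% beside 46.8%), with a median log2 change of -1.58 against 0.01 for all tested genes. The low-affinity transporter genes PHO90, PHO87 and PHO91 fell 6.54-fold, 2.02-fold and 1.26-fold. PHO86, whose product lets Pho84 leave the endoplasmic reticulum, fell 3.45-fold. PHO88, named SND3 in RefSeq and acting in protein targeting to the endoplasmic reticulum, fell 18.5-fold, to 45.5 ± 0.69 CPM in the mutant, against 843 ± 22.5 CPM in the wild type. SYG1 fell 2.84-fold and GTR1, a GTPase of nutrient signalling, 3.12-fold. GIT1, the permease for glycerophosphoinositol, rose 5.64-fold, to 36.9 ± 1.06 CPM in the mutant, against 6.54 ± 0.373 CPM in the wild type (SD, n = 2 each; edgeR adjusted p = 2.4e-16). Per coding length the high-affinity pair stood to the 3 low-affinity genes at 0.459 and 0.450 in the mutant, against 0.339 and 0.315 in the wild type. The size of that ratio depends on counting PHO91, the highest of the 3. It had 57.2 ± 2.08 RPKM in the mutant and 71.9 ± 1.62 RPKM in the wild type (SD, n = 2 each).

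Polyphosphate genes outside the 10 went both ways, with 2 of 6 higher (33.3%, beside 46.8% of all tested genes), 4 lower (66.7%, beside 46.3%) and a median log2 change of -0.93. PPN1 and PPX1, which degrade polyphosphate, fell 2.22-fold and 2.15-fold, and PPN2, another polyphosphatase gene, rose 1.34-fold. In the list of phosphatases and phosphodiesterases 4 of 5 fell (80%, beside 46.3% of all tested genes). A rise was called for 1 (20%, beside 46.8%), and the median was -0.29. Apart from PHO3 these changes were below 2-fold: DIA3, an acid phosphatase relative, rose 1.88-fold, while GDE1, PHO13 and SDT1 fell by log2 changes between -0.22 and -0.29. All 4 other genes listed for the low-phosphate response rose, where 46.8% of all tested genes did, with a median of 2.66. That count rests on how genes were sorted into lists. Over all 38 phosphate genes listed outside the 10 and the Crz1 branch, 12 were higher (31.6%) and 23 lower (60.5%). Their median was -0.29. PHM6 rose 2.29-fold, PHM7 13.3-fold, CTF19, a kinetochore gene, 2.98-fold and PHO92, an RNA-binding protein gene, 37.4-fold. PHO92 had 55.3 ± 1.26 CPM in the mutant and 1.48 ± 0.194 CPM in the wild type (SD, n = 2 each; edgeR adjusted p = 1.7e-19).

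PHO89 is also a known target of the calcineurin-regulated factor Crz1, so genes of that branch were set beside it. Of 7 such genes 5 rose (71.4%, beside 46.8% of all tested genes) and 1 fell (14.3%, beside 46.3%). The last 1 was not called, and the median log2 change was 0.99. CRZ1 itself rose 3.96-fold, the vacuolar calcium pump gene PMC1 2.32-fold and the kinase gene CMK2 2.89-fold. ENA1, a sodium pump gene, and PMR1, a Golgi calcium pump gene, rose 1.98-fold and 1.45-fold. Unique windows were not counted for the genes of this branch, so reads shared with other genes, as may matter for ENA1, were not looked for. FKS2, a glucan synthase gene, fell 2.93-fold. RCN1 was not called (log2 0.09, edgeR adjusted p = 0.17), but was higher under 3 alternatives. These were upper quartile scaling (log2 0.19, edgeR adjusted p = 0.0065), a mean of at least 1 CPM (0.13, edgeR adjusted p = 0.037) and leaving out wild-type replicate 2 (0.16, edgeR adjusted p = 0.036). Whether this branch has a part in the PHO89 value was not tested.

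**Figure D5:**
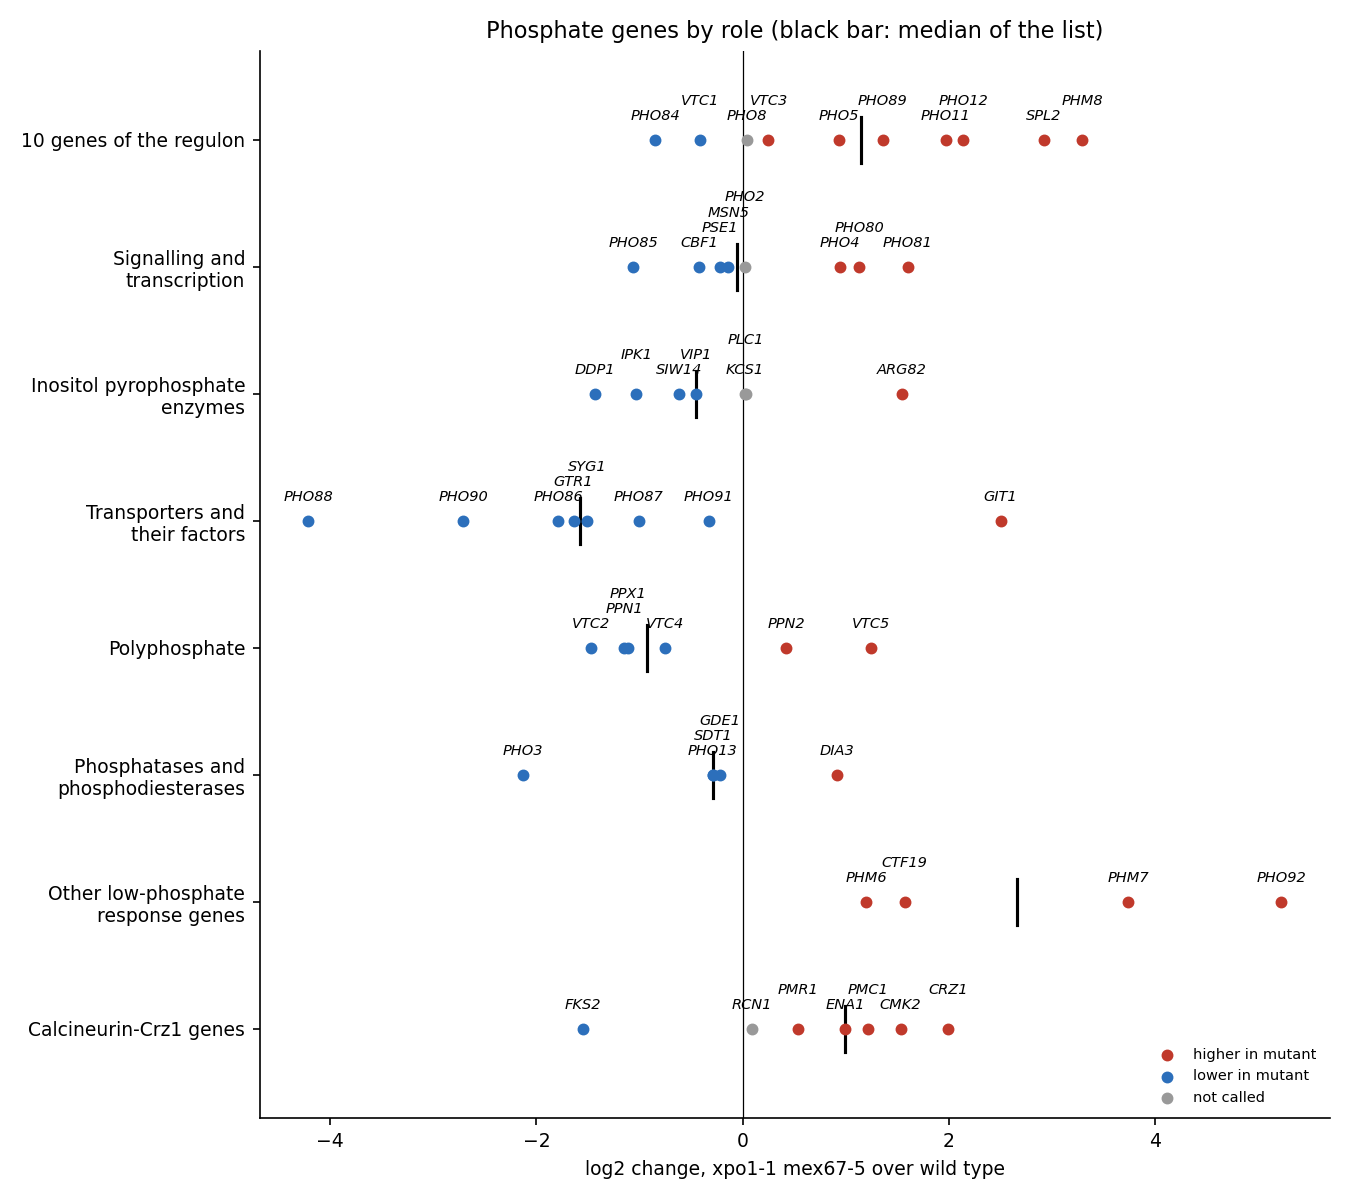
Log2 change (xpo1-1 mex67-5 over wild type) of the 10 genes and of 45 other genes grouped by role; red points rose, blue points fell, grey points were not called, and black bars are list medians. Genes in the list of transporters and their factors lie to the left apart from GIT1, and the 4 other low-phosphate response genes lie to the right.

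Of 15 called genes next to a called gene of the 10, 10 changed the same way as that gene and 5 the other way. Divergent partners across a shared upstream region went the same way in 4 of 6 pairs. Of all called genes 50.3% were higher, and the same-way share over all neighbouring genes was not computed. Nothing about neighbours is therefore read from these counts. CTF19 rose with VTC3 (log2 1.57, SE 0.046), PBY1 with PHO5 (0.50, SE 0.038) and YHR214C-E with PHO12 (3.06, SE 0.35), and TDA2 fell with VTC1 (-0.17). ARO9 fell (log2 -0.48, SE 0.046) beside SPL2, which rose, and ARB1 fell slightly (-0.08) beside PHM8, which rose. On the far side, PCA1 rose beside PHO89 (log2 0.34), TUB3 fell beside PHO84 (-0.14), ALD5 fell beside VTC1 (-0.42), YCK1 fell beside SPL2 (-0.74) and ULP1 fell beside VTC3 (-0.79). PHO8, which was not called, lies between DIG2, which rose 4.57-fold, and CWC21, which fell 3.24-fold.

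Near the chromosome ends IMD2, beside PHO12, rose 5.59-fold, to 309 and 305 CPM in the mutant, against 53.5 and 56.4 CPM in the wild type. YHR214C-E, the divergent partner of PHO12 named above, had 71 and 84 reads in the mutant and 7 and 9 reads in the wild type. YAR068W, beside PHO11, was not called (log2 0.15, SE 0.32), nor was YML122C, upstream of PHO84 (log2 0.08, SE 0.082). TYC1, upstream of PHO89, had 50 and 29 reads in the mutant and 6 and 3 reads in the wild type, a log2 change of 2.90 (SE 0.44, edgeR adjusted p = 9.1e-06). Unique windows were not counted for any gene of this paragraph except the members, so reads shared with copies elsewhere were not looked for.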

How the data were processed

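For every library the authors deposited a table of raw read counts, whole numbers, for each gene. Per the submitters' processing notes the tools were STAR 2.5, featureCounts, bcl2fastq 2.17 and DESeq2 1.8.2, with build R64; what each was used for is not said. The deposited intron counts list no intron of the 10 genes and were not used. The members and lists were chosen with earlier results of these data known, and no list is independent support.

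The gene test was edgeR 4.0.16 in R 4.3.3, after filterByExpr and with TMM factors (1.01 and 0.996 for the mutant, 0.994 and 0.999 for the wild type). It used robust quasi-likelihood fits with group alone, two-sided, with Benjamini-Hochberg adjustment over 6563 genes at 0.05. SE is the log2 change over the square root of F, and 95% intervals use the same fit. The biological coefficient of variation was 2.95%. Counts of replicates differed beyond counting error (chi-square over degrees of freedom 7.23 in the mutant and 10.8 in the wild type). Ratios used exact permutation over the 4 libraries.

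Coordinates, coding lengths and sequences come from RefSeq build R64. Each of the 10 genes is annotated as 1 coding segment, without an intron. Only the edgeR fit was tested on simulated counts, with few genes changed and as many up as down. In these data 93.1% of tested genes were called, so that test does not cover the scaling used here. Named genes are the 10 members, CRM1 and MEX67, listed genes past the threshold with a log2 change of at least 1, PHO4, PHO2, PHO80, PHO85, PHO81 and the nearest neighbours. Other listed genes, and ratios of PHO5 to PHO3, VTC3 to VTC2, PHO80 to PHO85 and high- to low-affinity transporters, were added after their values were seen. Alternatives were other scalings and filters, DESeq2 1.42.0, a replicate block and leaving out each library. Sequences were aligned with Biopython 1.88 and figures drawn with matplotlib 3.10.9.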

Additional observations from a re-analysis of the deposited data

How the results depend on the processing

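Of 122 values of the 10 genes under the alternatives (12 besides the settings used, plus the summed PHO11 and PHO12), 119 kept their direction and their side of the threshold; the 3 exceptions were all PHO8. PHO8 passed with upper quartile scaling (log2 0.14) and with genes under a mean of 1 CPM left out (0.09), and changed sign with scaling without ribosomal protein genes (-0.004); the cause was not tested. Among 540 values of the 45 listed genes, 528 stayed, 7 passed, 1 no longer passed and 4 changed sign, all for PHO2, PLC1, KCS1, RCN1 and MSN5, whose log2 changes were near 0. The sign changes were PHO2 (-0.022), PLC1 (-0.011) and KCS1 (-0.021) without ribosomal protein genes in the scaling, and PHO2 without wild-type replicate 2 (leaving out each library in turn, PHO2 ranged from -0.003 to 0.04). Upper quartile scaling moved the median change of all genes by 0.10 and put PHO5 past a log2 change of 1 (6 of 10 in place of 5). Replicate numbers are shared by label only, and deviations of same-numbered libraries correlated at -0.0264 across genes. With the replicate number as a block, 3075 genes were higher and 3034 lower, and of the 10 genes 7 were higher and 2 lower, as without it. Leaving out each library in turn gave 2964 to 3058 genes higher and 2973 to 3016 lower. Among the 10 genes, depth limits SPL2, PHO11 and PHO12 most, which have the fewest wild-type reads.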

Other observations

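The Pho4 cores were also looked for before the 38 other phosphate genes listed. The palindrome stood before 16 of them (42.1%) and either core before 24 (63.2%), against 7.23% and 24.4% of protein-coding genes. PHM7 and PHO92, which had the largest rises of those 38, held no match in the 600 bases before the start codon. PHO90 and PHO88, which had the largest falls, held none either.

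Across the genome, the 422 tested protein-coding genes with a palindrome had a median log2 change of -0.04, beside -0.09 for all 5834 tested with a full window. Called rises with a log2 change of 1 or more made up 26.3% of the 422 and 24.6% of the 5834. For the 52 genes with at least 2 palindromes, which include SPL2, PHO84 and VTC3, the median was 0.36. Called rises with a log2 change of 1 or more made up 36.5% of the 52. Called falls of at least 1 on the log2 scale made up 24.4% of the 422, 21.2% of the 52 and 27.2% of the 5834. These are counts without a test, and the palindrome is bound by other factors such as Cbf1 as well.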
